A study of Arabidopsis thaliana with 3 samples.

Results

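UDP-glycosyltransferase (UGT) and glutathione transferase (GST) genes were followed in whole seedlings of Arabidopsis thaliana, ecotype Col-0, in 3 genotypes with 1 array each. In the mutant ppi1 a T-DNA disrupts the Toc33 gene, whose product is a receptor of the translocon that takes cytosolic proteins into plastids. For line 75-IV, ppi3 in the series title, the label names a T-DNA insertion in Toc75 with the locus At4g09070. The RefSeq gene table has TOC75-IV, the gene that the name of the line points to, under another locus. The wild type has no modification. All seedlings were at growth stage 1.02 and grew on MS medium with 0.5% sucrose under 16 h of light and 8 h of dark, and the number of plants in a sample is left blank. The set took every gene whose symbol starts with UGT and a number, or with GSTF, GSTU, GSTZ, GSTT or GSTL, plus IAGLU, provided a probe set was annotated to that gene alone. This gave 24 of 3602 named genes, 21 of them UGT genes with IAGLU counted in and 3 GST genes. No gene of the GSTZ, GSTT or GSTL classes was among them. With 1 array per genotype no test was possible, and every difference below sets 1 array against another, so the number of arrays limits the precision.

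UGT enzymes move a sugar from a UDP-sugar onto a small acceptor such as a hormone, a phenylpropanoid, a glucosinolate precursor or a foreign compound, which usually makes it more soluble, inactive or ready for the vacuole. GST enzymes join the tripeptide glutathione to reactive compounds, or bind such compounds without changing them, and many are induced by stress. Phi (GSTF) and tau (GSTU) classes are the largest plant branches of the GST family. In seedlings the products include the inactive glucose esters of auxin and the sinapate and flavonol glycosides that absorb ultraviolet light.

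Signals are linear, in arbitrary units, and were used as deposited, since the trimmed mean was 100.2 on each array. The floor was 14.9, the 40th percentile of the signals of all gene probe sets, and a gene counted as measured where both arrays of a comparison exceeded it. The scanner's average background was 61.98 for ppi1, 56.59 for line 75-IV and 50.47 for wild type, and 504, 20 and 11 cells were outliers in that order. The control probe sets for GAPDH had a 3′ to 5′ signal ratio of 1.61 in ppi1, 2.42 in line 75-IV and 18.7 in wild type. Those for ubiquitin were closer together, at 2.75 in ppi1, 3.51 in line 75-IV and 4.16 in wild type. Where on their transcripts the UGT and GST probe sets lie was not examined, so the part of these differences in the values below was not tested. For the label of whole seedlings only the shoot part was looked at, with 5 shoot genes for photosynthesis and photorespiration. These all lay above the floor on all 3 arrays, and they cannot tell whole seedlings from shoots alone. Their summed signal, which the brightest of them set most, was 5736.2 in ppi1, 8753.8 in line 75-IV and 9104.7 in wild type. Gene by gene, with the arrays as deposited, 3 of the 5 were higher in line 75-IV than in wild type and 2 lower. Each of the 5 was lower in ppi1 than in wild type (4 of 5 after quantile normalization or loess, 3 of 5 under a scaling to spike-in controls), and the part of this in the results below was not tested. The 6 root markers looked for were not analysed here, because no probe set was named for them alone. In whole seedlings, fewer cells of a type and less RNA per cell cannot be told apart.

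Of the 24 genes, 14 lay above the floor of 14.9 on all 3 arrays, which is 58.3%, against 49.9% of all named genes. These were the UGT genes IAGLU, UGT71C2, UGT71D1, UGT72E1, UGT73B1, UGT74B1, UGT74D1, UGT84A3, UGT84A4, UGT85A2 and UGT87A2, and all 3 GST genes, GSTF3, GSTU16 and GSTU18. Another 3 lay above it on some arrays. UGT71C1 was above it in ppi1 and line 75-IV, UGT73C1 in line 75-IV and wild type, and UGT84B2 in ppi1 alone. The remaining 7, UGT71B5, UGT72E3, UGT73C2, UGT74F1, UGT80B1, UGT84A1 and UGT84B1, were below the floor on every array, with signals between 0.6 and 9.0, and have no ratio here. Below the floor on every array were thus 29.2% of the set, against 37.7% of all named genes. By array, 16 of the 24 were above the floor in ppi1, 16 in line 75-IV and 15 in wild type. Of all named genes 57.9%, 55.7% and 54.2% were, in that order.

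**Figure D1:**
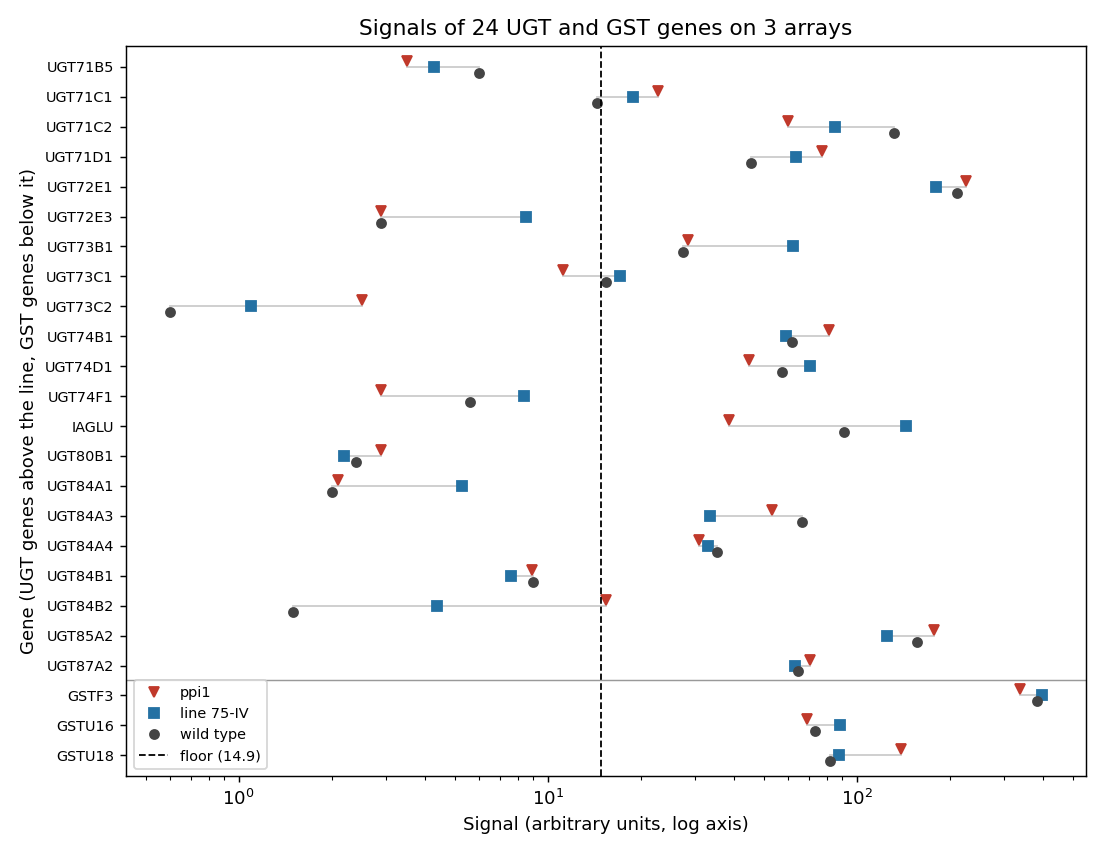
Signal of each of the 24 genes (log axis, arbitrary units) on the ppi1, line 75-IV and wild-type arrays, 1 point per array, with the floor of 14.9 as a dashed line and a grey line joining the 3 values of a gene. As deposited, IAGLU spreads widest among the genes that stay above the floor, from 38.6 in ppi1 to 144.3 in line 75-IV.

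Among UGT genes for auxin, IAGLU differed most between the genotypes. IAGLU (AT4G15550), annotated as an indole-3-acetate glucosyltransferase, had a signal of 38.6 in ppi1, 144.3 in line 75-IV and 91.3 in wild type. The wild-type value thus lay between those of the mutants, with ppi1 below it and line 75-IV above it. Relative to wild type, IAGLU was 2.37-fold lower in ppi1 (log2 ratio -1.24), and 16 of 1853 measured genes, 0.863%, lay farther down. In line 75-IV it was 1.58-fold higher than in wild type (log2 ratio 0.66). Between the mutants it was 3.74-fold lower in ppi1, and 17 of the 1796 genes above the floor on all arrays, 0.947%, had a wider range over the 3 arrays. These directions were kept under the 4 other scalings tried (median centring, quantile normalization, loess and scaling to bacterial spike-in controls), with log2 ratios of ppi1 over wild type from -1.37 to -0.76. The width of the range depended on the scaling. Under the spike-in scaling IAGLU had a range of 2.36-fold, and those of GSTU18 (2.52-fold), UGT84A3 (2.52-fold) and UGT71D1 (2.38-fold) were wider. The probe set of IAGLU carries the suffix _s, which the array's maker gives to sets that may read more than 1 transcript.

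UGT74D1 (AT2G31750), which glucosylates indole-3-acetate and its oxidised form, had the same order of arrays with smaller gaps. Its signal was 44.7 in ppi1, 70.6 in line 75-IV and 57.4 in wild type. That is 1.28-fold lower in ppi1 and 1.23-fold higher in line 75-IV than in wild type, although the log2 ratio of ppi1 over wild type turned to 0.12 under the spike-in scaling. UGT84B1 (AT2G23260), another enzyme for indole-3-acetate, was below the floor throughout at 8.9 in ppi1, 7.6 in line 75-IV and 9.0 in wild type. Its neighbour and close relative UGT84B2 had 15.4 in ppi1, just above the floor, against 4.4 in line 75-IV and 1.5 in wild type. Since values under the floor have no order, UGT84B2 can only be said to be at least 1.03-fold higher in ppi1.

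Of the UGT genes for phenylpropanoids, 3 of 5 were measured. UGT84A3 (AT4G15490) and UGT84A4 (AT4G15500) encode enzymes that make glucose esters of hydroxycinnamates, and UGT72E1 (AT3G50740) one that glucosylates monolignol aldehydes. UGT84A3 had 53.3 in ppi1, 33.5 in line 75-IV and 66.8 in wild type. It was low in line 75-IV, 1.99-fold below wild type and just short of 2-fold, and 8 of 1858 measured genes, 0.431%, lay farther down. The 4 other scalings put it at log2 ratios of -1.17 to -1.05, past 2-fold. In ppi1 it was 1.25-fold lower than in wild type, with a log2 ratio of 0.16 under the spike-in scaling.

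UGT84A4, its neighbour on the chromosome, differed little as deposited, with 30.9 in ppi1, 33.1 in line 75-IV and 35.3 in wild type. Under the spike-in scaling its range was 1.48-fold, with ppi1 highest. UGT72E1 had 226.6 in ppi1, 181.1 in line 75-IV and 211.9 in wild type, a range of 1.25-fold over all arrays (1.98-fold under the spike-in scaling). All 3 were lower in line 75-IV than in wild type, with log2 ratios of -0.23 for UGT72E1 and -0.09 for UGT84A4 beside the nearly 2-fold difference of UGT84A3. UGT72E3, a monolignol enzyme, and UGT84A1, also for hydroxycinnamates, had signals between 2.0 and 8.5 and were not measured.

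Glucosinolate synthesis was represented by UGT74B1 (AT1G24100), which glucosylates thiohydroximates. Its signal was 81.5 in ppi1, 59.2 in line 75-IV and 61.8 in wild type. It stood 1.32-fold above wild type in ppi1, while line 75-IV and wild type were close together. Its range over the arrays was 1.38-fold as deposited and 2.18-fold under the spike-in scaling. Salicylate and sterols had 1 gene each, UGT74F1 (2.9, 8.4 and 5.6 in ppi1, line 75-IV and wild type) and the sterol glucosyltransferase UGT80B1 (2.9, 2.2 and 2.4), both below the floor. UGT73C1 (AT2G36750), which glucosylates trinitrotoluene metabolites and cytokinins, had 11.2 in ppi1, 17.1 in line 75-IV and 15.4 in wild type, all near the floor.

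For the other measured UGT genes no acceptor is assigned here. UGT73B1 (AT4G34138) had 28.5 in ppi1, 62.3 in line 75-IV and 27.4 in wild type. It was thus high in line 75-IV alone, 2.27-fold above wild type (log2 ratio 1.19, and 1.01 to 1.13 under the other scalings), and 14 of 1858 measured genes, 0.753%, lay farther up. Between the mutants it was 2.19-fold lower in ppi1, and under the spike-in scaling that log2 ratio shrank to -0.47. UGT71C2 (AT2G29740) had 59.8 in ppi1, 85.0 in line 75-IV and 131.8 in wild type. Both mutants lay below wild type, ppi1 by 2.20-fold and line 75-IV by 1.55-fold, comparisons that share the wild-type array.

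UGT71D1 (AT2G29730) ran the other way, with 77.3 in ppi1, 63.5 in line 75-IV and 45.5 in wild type. Both mutants lay above wild type, by 1.70-fold in ppi1 and 1.40-fold in line 75-IV. UGT85A2 (AT1G22360) had 178.5 in ppi1, 125.2 in line 75-IV and 156.5 in wild type, a range of 1.43-fold (2.25-fold under the spike-in scaling). UGT87A2 (AT2G30140), known for an effect on flowering time through the repressor FLC, had 70.9 in ppi1, 63.0 in line 75-IV and 64.4 in wild type. Its range was the narrowest of the 14 with the arrays as deposited, at 1.13-fold, and reached 1.78-fold under the spike-in scaling. UGT71C1 (AT2G29750) had 22.7 in ppi1, 18.9 in line 75-IV and 14.5 in wild type, just under the floor, so it was at least 1.52-fold higher in ppi1 and at least 1.27-fold higher in line 75-IV.

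Among the GST genes, only GSTU18 (AT1G10360), of the tau class, was more than 1.5-fold apart. Its signal was 139.2 in ppi1, 87.5 in line 75-IV and 82.1 in wild type. It was high in ppi1 alone, 1.70-fold above wild type and 1.59-fold above line 75-IV. Farther up lay 9.77% of 1853 measured genes in the first comparison and 10.4% of 1885 in the second. Under the spike-in scaling GSTU18 was 1.25 on the log2 scale above wild type in ppi1. GSTU16 (AT1G59700), also of the tau class, had 69.3 in ppi1, 88.7 in line 75-IV and 73.3 in wild type. GSTF3 (AT2G02930), of the phi class, had 337.7 in ppi1, 398.0 in line 75-IV and 383.0 in wild type, a range of 1.18-fold. Its probe set carries the suffix _f, given to sets that may read several members of a family, and GSTF3 has a near-identical copy in GSTF2, so its signal is uncertain as that of 1 gene. In ppi1 both GSTU16 and GSTF3 were slightly lower than in wild type (log2 ratios -0.08 and -0.18), and above it under the spike-in scaling (0.40 and 0.30).

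Setting ppi1 against wild type asks how these genes stand when Toc33 is disrupted. IAGLU and UGT71C2 were at least 2-fold lower in ppi1, and no measured gene of the set was at least 2-fold higher. That is 2 of 14 measured genes at least 2-fold apart, where 6.69% of 1853 measured genes were. On the lower side alone 2.43% of all measured genes passed 2-fold, and on the higher side 4.26%. At a number this small 1 gene more or less sets the share. Of the 14, 7 were higher and 7 lower, where 58.1% of all measured genes were higher, with a median log2 ratio of -0.01, against 0.11 for all measured genes. UGT genes had a median of 0.06 (6 higher, 5 lower) and GST genes of -0.08 (1 higher, 2 lower). Scaling to the 9 bacterial spike-in probe sets, whose mean log2 ratio was -0.48 here (0.18 for line 75-IV over wild type and -0.66 for ppi1 over line 75-IV), moved the median of all genes to 0.57. It left IAGLU at -0.76 and UGT71C2 at -0.66, both inside 2-fold, and put GSTU18 and UGT71D1 past 2-fold on the higher side. Under it 12 of the 14 were higher and 2 lower in ppi1, so the even split holds for the arrays as deposited. The share of all genes that were higher under it is not given here.

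Setting line 75-IV against wild type puts that question for the insertion labelled as Toc75. UGT73B1 alone was at least 2-fold higher, and none of the set was at least 2-fold lower, with UGT84A3 just inside. That is 1 of 15 measured genes, where 1.88% of 1858 measured genes were at least 2-fold apart (1.45% higher and 0.431% lower). Of the 15, 8 were higher and 7 lower, where 55.2% of all measured genes were higher. The median log2 ratio was 0.06, against 0.05 for all measured genes, and it turned to -0.17 under the spike-in scaling, where that of all genes was -0.12. UGT genes had a median of -0.05 (5 higher, 7 lower). The 3 GST genes were all slightly higher, with log2 ratios of 0.28 for GSTU16, 0.09 for GSTU18 and 0.06 for GSTF3, of which those of GSTU18 and GSTF3 were below 0 under the spike-in scaling.

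The direct comparison of ppi1 with line 75-IV left out the wild-type array. IAGLU and UGT73B1 were at least 2-fold lower in ppi1, and no measured gene of the set was at least 2-fold higher. That is 2 of 15 measured genes, where 6.26% of 1885 measured genes were at least 2-fold apart (2.76% higher and 3.50% lower). IAGLU had a log2 ratio of -1.90, with 5 genes farther down, 0.265%, and -1.24 under the spike-in scaling. The median of the 15 was 0.17, against 0.07 for all measured genes, with 8 higher and 7 lower where 55.9% of all measured genes were higher, and the spike-in scaling moved the medians to 0.83 and 0.70. Under that scaling 13 of the 15 were higher and 2 lower in ppi1. The share of all genes that were higher by any amount under it is not given here. Of the 15, 4 were at least 2-fold higher, where 26.4% of 1827 measured genes were. Next to these, UGT84A3 and GSTU18 were each 1.59-fold higher in ppi1, and UGT74D1 was 1.58-fold lower (at a log2 ratio of 0.00 under the spike-in scaling).

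**Figure D2:**
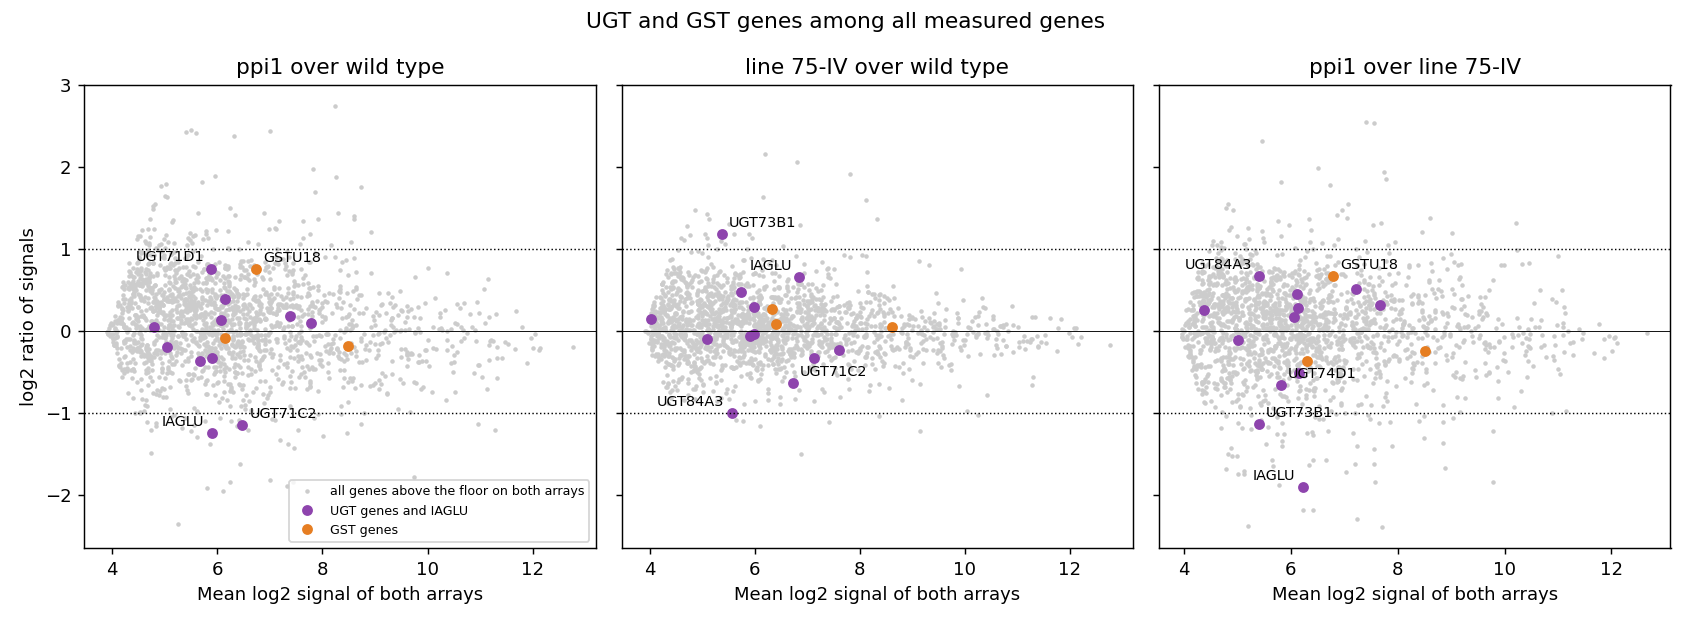
Log2 ratio of signals against mean log2 signal for each pair of arrays, with all genes above the floor on both arrays in grey, UGT genes in purple and GST genes in orange. Dotted lines mark 2-fold, and names are given from a log2 ratio of 0.6 on. IAGLU lies at -1.24 in ppi1 over wild type and at -1.90 in ppi1 over line 75-IV, and UGT73B1 at 1.19 in line 75-IV over wild type.

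With the arrays as deposited, the 14 genes above the floor on all of them did not follow a single order of genotypes. In 4 of them, GSTF3, GSTU16, IAGLU and UGT74D1, ppi1 was lowest and line 75-IV highest, an order shown by 18.2% of 1796 genes. In another 4, UGT72E1, UGT74B1, UGT85A2 and UGT87A2, line 75-IV was lowest and ppi1 highest, as in 20.6% of genes. UGT71C2 and UGT84A4 were highest in wild type and lowest in ppi1, as in 14.5% of genes. GSTU18 and UGT71D1 were the reverse, which at 24.8% was the commonest order among all genes. UGT84A3 and UGT73B1 had orders of their own, shown by 9.86% and 12.0% of genes. Under the spike-in scaling 7 of the 14 kept their order and 11 were highest in ppi1. That scaling moved the median log2 ratios of all measured genes to 0.57 for ppi1 over wild type and 0.70 for ppi1 over line 75-IV. The shares of all genes for these counts are not given here. Of the 4 that were lowest in ppi1 and highest in line 75-IV, IAGLU kept that order. GSTF3, GSTU16 and UGT74D1 were then highest in ppi1, with UGT74D1 at a log2 ratio of 0.00 to line 75-IV. UGT71C2, UGT84A4, GSTU18 and UGT84A3 also changed order, while those of UGT72E1, UGT74B1, UGT85A2, UGT87A2, UGT71D1 and UGT73B1 did not. As deposited, at least 2-fold were the ranges of 3 of the 14, IAGLU, UGT73B1 and UGT71C2, where 10.8% of all genes reached that.

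Many of the UGT genes lie side by side. How often genes of other families do so was not examined. By the RefSeq gene order, 11 of the 24 fall into 4 runs with at most 10 other coding genes between neighbours. On chromosome 4, UGT84A1, UGT84A3 and UGT84A4 follow each other directly, and IAGLU comes after 5 other coding genes. Within this run, as deposited, UGT84A1 was below the floor on every array and UGT84A3 was lowest in line 75-IV. UGT84A4 spread by 1.14-fold and IAGLU was highest in line 75-IV. On chromosome 2, UGT71D1, UGT71C2 and UGT71C1 lie together with 1 other coding gene between UGT71D1 and UGT71C2. UGT71C2 was lower in both mutants than in wild type, while UGT71D1 on one side and UGT71C1 on the other were higher in both. The other runs, also on chromosome 2, are UGT84B2 with UGT84B1 and UGT73C1 with UGT73C2, which lay near or below the floor. Cross-hybridisation between neighbouring copies was not tested.

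**Figure D3:**
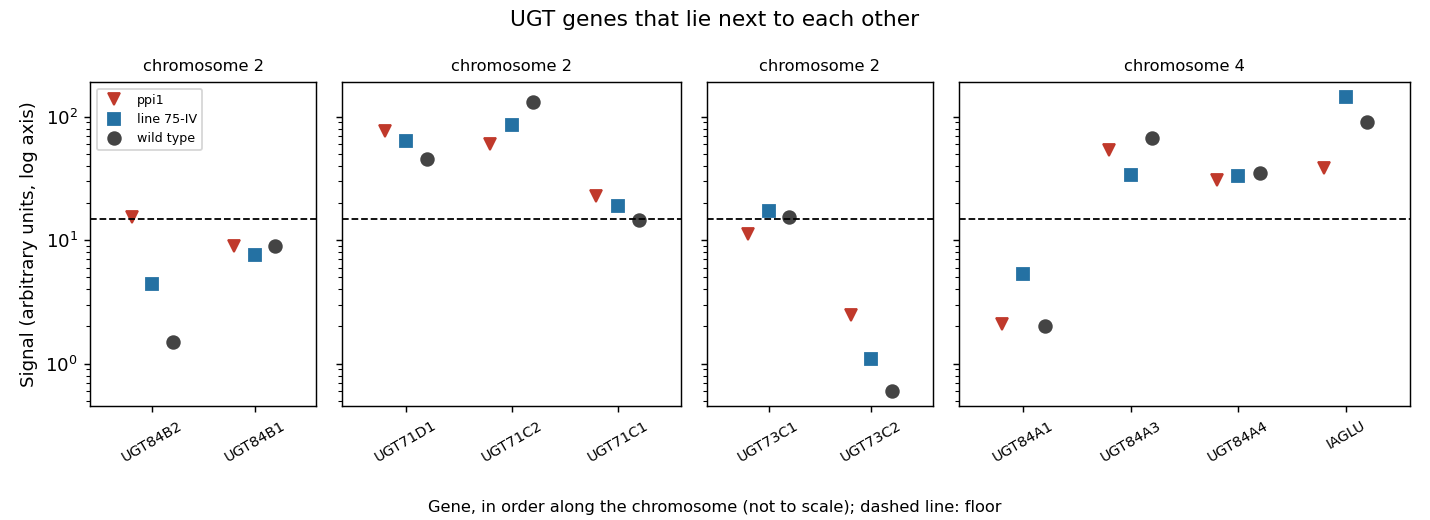
Signals (log axis, arbitrary units) of the 11 UGT genes in 4 runs of neighbours, in order along chromosomes 2 and 4 but not to scale, on the ppi1, line 75-IV and wild-type arrays, with the floor as a dashed line. UGT71D1 is highest in ppi1 and lowest in wild type while its neighbour UGT71C2 is the reverse as deposited (lowest in line 75-IV under the spike-in scaling), and IAGLU is highest in line 75-IV where UGT84A3 is lowest.

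Other genes of these pathways were thinly covered. Of 15 genes for glutathione synthesis and recycling, 2 had a named probe set. GR1 (AT3G24170), the glutathione reductase that returns oxidised glutathione to its reduced form in the cytosol and peroxisomes, had 230.5 in ppi1, 567.3 in line 75-IV and 543.1 in wild type. It was low in ppi1 alone, 2.36-fold below wild type and 2.46-fold below line 75-IV, and inside 2-fold once scaled to the spike-in controls (log2 ratios -0.75 and -0.64). The plastid and mitochondrial reductase, listed as GR (AT3G54660), was below the floor with 12.5 in ppi1, 10.5 in line 75-IV and 6.0 in wild type. The 17 genes for phenylpropanoid and flavonoid acceptors had 1 named probe set, for the dihydroflavonol reductase DFR, which was below the floor throughout. The 20 genes for UDP-sugar supply and the 7 for transport and breakdown of glutathione conjugates were not analysed here.

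**Figure D4:**
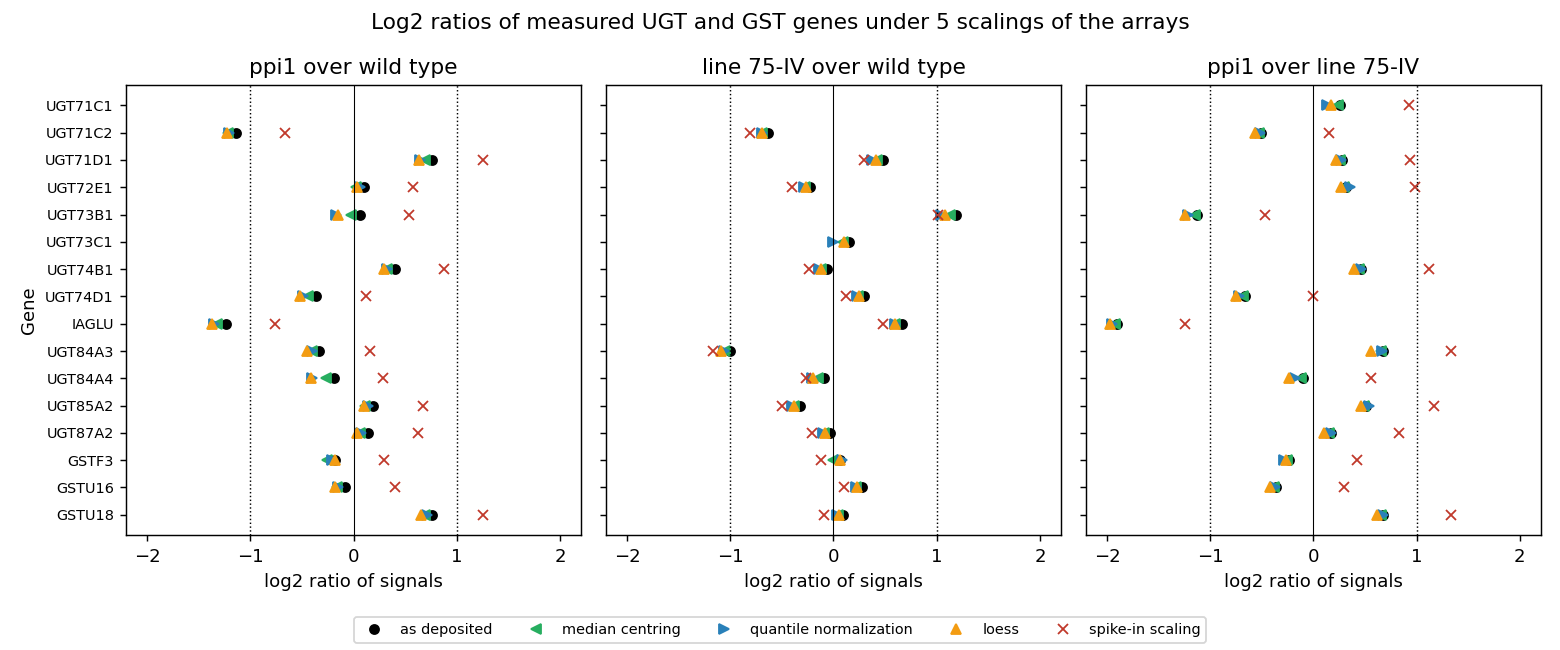
Log2 ratios of the UGT and GST genes measured in each comparison, with the arrays as deposited (black) and under median centring, quantile normalization, loess and scaling to spike-in controls (coloured). The red crosses of the spike-in scaling stand apart to the right in both comparisons with ppi1 on top, and IAGLU stays below 0 there under all 5 scalings.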

How the data were processed

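Total RNA was labelled as biotin cRNA from an oligo-dT primer, per the labels' protocols, and read on Affymetrix arrays of 8297 probe sets. Each probe set has 1 deposited value, an intensity signal on a linear scale. Which software made it, and its scaling target, is not given in the sources used here. Genes were counted without the 50 control probe sets, of which 9 gave the spike-in scaling. The platform annotation names 3794 probe sets for 1 gene and 70 for several, of which 1 held a gene whose symbol fits the choice and was not used. Each of the 24 genes had 1 probe set and was found in the RefSeq gene table (TAIR10.1), used for names and neighbours. For other genes the brightest probe set was taken. The floor was taken over 8247 gene probe sets, without the controls. Log2 ratios were computed without a pseudocount between genes above the floor on both arrays, and 2-fold is a rule of size. Genes above the floor on any array are named with their signals, those below it by range or value, and pathway genes where above the floor on all arrays and at least 1.5-fold apart. The genes and lists were chosen with earlier results of these data known. The calculation of ratios was checked on simulated data with planted changes and a set noise (Python 3.11.15, pandas 2.3.3, statsmodels 0.14.6 for loess with a span of 0.4). That check cannot show the spread between real arrays or a shift of a whole array. Alternatives were 4 scalings, other floors, probe set rules, thresholds and a wider choice of genes.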

Additional observations from a re-analysis of the deposited data

Results flagged for a closer look

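IAGLU was on opposite sides of wild type in the 2 mutants, with a log2 ratio of -1.24 in ppi1 and 0.66 in line 75-IV, each at least 1.5-fold. Of the genes of the set it was the only such gene with the arrays as deposited. Under the spike-in scaling the ratio in line 75-IV was 0.48, inside 1.5-fold. Both ratios share the wild-type array, and the difference was not tested.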

How the results depend on the processing

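No paired analysis was possible because each genotype has 1 array, and for the same reason no array could be left out. In the order ppi1 over wild type, line 75-IV over wild type and ppi1 over line 75-IV, the genes at least 2-fold apart numbered 2, 1 and 2. They numbered 1, 0 and 0 with a floor at the 60th percentile (5.04%, 1.28% and 5.24% of all measured genes). The same numbers came at 4 times the floor (4.92%, 1.1% and 5.41%). A floor at the 20th percentile gave 2, 1 and 3 (11.9%, 4.58% and 10.3%). With no floor they numbered 4, 4 and 7 of 24 (26.2%, 18.6% and 25.0% of all genes). Genes at least 1.5-fold apart numbered 4, 4 and 5 (25.6%, 11.8% and 24.6% of all measured genes). Those at least 3-fold apart numbered 0, 0 and 1 (1.35%, 0.269% and 1.43%). IAGLU and GSTF3 drop out without probe sets that carry a suffix. Then ppi1 over wild type and ppi1 over line 75-IV each had 1 gene at least 2-fold apart (6.15% and 5.68% of all measured genes). Line 75-IV over wild type had 2 after median centring, quantile normalization, loess or spike-in scaling, as UGT84A3 passed 2-fold. In that order, 1.77%, 1.48%, 1.56% and 2.04% of all measured genes passed. Under the spike-in scaling ppi1 over line 75-IV had 5 (4 higher, 1 lower, where 27.4% of all measured genes passed), and the medians with ppi1 on top moved to 0.47 and 0.83. There ppi1 over wild type again had 2 (20.3% of all), both higher instead of both lower. Genes above the floor on all arrays numbered 14, and 24 with no floor or 7 at 4 times the floor. With a floor at the 20th percentile they numbered 17, and at the 60th percentile 10. Of 46 log2 ratios, GR1 included, 31 moved by 0.25 or more under the spike-in scaling and 12 changed sign, none of them at least 2-fold as deposited. The other settings moved none by that much, and loess, median centring and quantile normalization each turned 1, that of UGT73B1 in ppi1 over wild type. Ratios that round to 0 are not in these counts of changed signs. Among them, GSTF3 in line 75-IV over wild type fell just below 0 after median centring. UGT74D1 in ppi1 over line 75-IV rose just above 0 under the spike-in scaling. A floor that includes the control probe sets, chosen after seeing the data, changed none of these counts. Signal over background limits the 10 genes below the floor on at least 1 array.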

Other observations

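Of the UGT genes, 2 are listed under older symbols and so fall outside the choice by symbol. GT72B1 (UGT72B1), which glucosylates chlorophenols and chloroanilines, had 44.5 in ppi1, 63.4 in line 75-IV and 57.0 in wild type, with the arrays as deposited the same order as IAGLU and UGT74D1. SGT (UGT80A2), a sterol glucosyltransferase, had 25.4 in ppi1, 20.6 in line 75-IV and 16.9 in wild type, with a log2 ratio of 0.59 for ppi1 over wild type. It lay above the floor on all 3 arrays, whereas the other sterol glucosyltransferase, UGT80B1, lay below it on all 3.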
